A study of Arabidopsis thaliana with 57 samples.

Results

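Described here are the 6 RNA sequencing libraries of systemic leaf 1 in chains of touching Arabidopsis thaliana plants whose middle plant was the mutant hpca1-1. They were identified by their labelled column names and are 6 of 57 libraries in the series and 6 of 48 in the table of the chain experiment. Each chain held 3 plants, wild type (Col-0), hpca1-1 and wild type in that order (the WT-hpca1-WT chain). In the elevated light group (EL, n = 3), a local leaf of the first wild-type plant was lit at 2000 µmol photons per m2 and s for 30 minutes. In the control group (CT, n = 3), no leaf of the chain was lit in this way. Systemic leaf 1 was an unlit leaf of that same first plant, so the leaf studied was itself wild type in both groups, and both groups touched an hpca1-1 plant. Per the labels, plants were grown for 4 to 5 weeks on peat pellets at 50 µmol photons per m2 and s in 10 h light and 14 h dark, a drop of buffered agarose solution joined the touching leaves, and leaves of 10 to 15 plants were pooled per replicate. The sampling hour and any batches of plants or libraries are not given. The same leaf position in chains of 3 wild-type plants (the 3WT chain, 3 EL and 3 CT libraries) and the lit local leaf of the WT-hpca1-WT chain (3 EL and 3 CT libraries) served for comparison.

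HPCA1 is a leucine-rich repeat receptor kinase at the cell surface that senses extracellular hydrogen peroxide and opens calcium channels. Plants lit on a single leaf pass waves of reactive oxygen species and calcium to their other leaves, and the spread of the reactive oxygen wave between cells is known to need HPCA1. The hormones jasmonate, salicylate and abscisic acid, the circadian clock and sugar status are further known regulators of gene expression in unlit leaves of stressed plants.

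Expression was given as FPKM, fragments per kilobase of transcript and per fixed number of mapped fragments, and differences are log2 fold changes of FPKM + 1, EL over CT, with their standard error (SE) from limma. A gene was called where its Benjamini-Hochberg adjusted p was under 0.05. Among the 18735 genes tested, 5518 (29.5%) were called at systemic leaf 1, 1745 of them higher in EL leaves (9.31%) and 3773 lower (20.1%). Most changes were small, with a median size of 0.32 (log2) among called genes. A change of at least 1 (log2) was found for 314 called genes (1.68%), 163 higher (0.87%) and 151 lower (0.806%). All EL libraries lay above all CT libraries for 13.1% of tested genes and below them for 28.4%. The excess of falls depended on scaling, since 68.4% of called genes were lower as deposited, 53.2% after median-of-ratios scaling and 53.1% after quantile normalization. The 6 libraries held 764656 to 777635 summed FPKM, and replicates of a group correlated at 0.993 to 0.996 over genes. Their depth is unknown from FPKM, and the commonest ratio of low values, shared by only 4.44% to 11.5% of low genes, put the EL libraries at 0.815 to 0.911 and CT replicates 2 and 3 at 0.904 and 0.862 of CT replicate 1.

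Mesophyll markers were abundant, and those of other organs mostly low. The 5 mesophyll markers summed to between 31321.6 and 32013.2 FPKM in EL leaves, against 31007.6 to 31525.3 FPKM in CT leaves. Of these 5, 1 was called higher and 1 lower, where 9.31% of all tested genes were called higher and 20.1% lower. All 5 flower markers, 4 of 5 root markers and 4 of 5 seed markers were below 1 FPKM in all 6 libraries. The 5 epidermis markers summed to between 475 and 493 FPKM in EL leaves, against 373 to 381 FPKM in CT leaves, and 3 of the 5 were called higher. The 4 phloem companion cell markers summed to between 239 and 257 FPKM in EL leaves, against 263 to 273 FPKM in CT leaves, with 1 called lower. Guard cell markers summed to between 27.7 and 29.5 FPKM in EL leaves, against 29.0 to 31.0 FPKM in CT leaves, and none of the 5 was called. The part of these shifts in the results was not tested, and in pooled leaves fewer cells of a type and less RNA per cell cannot be told apart.

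HPCA1 (AT5G49760) itself had 51.2, 49.7 and 51.1 FPKM in EL leaves, against 51.5, 53.8 and 52.2 FPKM in CT leaves (log2 fold change -0.05 ± 0.04, adjusted p = 0.379). All 6 values lay above those of the 6 hpca1-1 libraries of the chain table (24.2 to 33.3 FPKM).

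The largest rises at systemic leaf 1 were in genes of jasmonate and abscisic acid biology, terpene synthesis, water transport and redox cycling. The calcium-binding caleosin RD20 (AT2G33380), a gene induced by dehydration and abscisic acid, had 355, 352 and 347 FPKM in EL leaves, against 91, 87.8 and 84.3 FPKM in CT leaves. Its log2 fold change was 1.99 ± 0.04 (adjusted p = 3.95e-32). The groups lay far apart beside a spread of a few FPKM between replicates. CYP94B1 (AT5G63450), a cytochrome P450 that oxidises the active jasmonate conjugate, had 65.9, 72.1 and 62.8 FPKM in EL leaves, against 14, 12.2 and 13 FPKM in CT leaves, a log2 fold change of 2.27 ± 0.07. The ethylene response factor RAP2.6 (AT1G43160) averaged 44.7 ± 2.57 FPKM in EL leaves, against 10.9 ± 0.796 FPKM in CT leaves (SD, n = 3 each, 1.94 ± 0.10). No EL library of either gene came near a CT library. TPS04 (AT1G61120), the terpene synthase that makes geranyllinalool for the leaf volatile TMTT, had 61.6, 61.7 and 57.2 FPKM in EL leaves, against 15.1, 15.2 and 14.1 FPKM in CT leaves (1.95 ± 0.07). MDHAR (AT3G09940), a monodehydroascorbate reductase that recycles ascorbate, had 85.5, 86.8 and 84.3 FPKM in EL leaves, against 26.6, 22.9 and 23.7 FPKM in CT leaves (1.77 ± 0.06). The aquaporin PIP2;3 (AT2G37180) rose by 1.85 ± 0.07 (log2) to a mean of 195 ± 16.7 FPKM in EL leaves (SD, n = 3), against 53.2 ± 0.89 FPKM in CT leaves. This gene has a near-identical neighbour, PIP2B, so reads could have been divided between the pair. The other 4 of the 10 largest rises were the defensin PDF1.2c (AT5G44430, 2.3 ± 0.16), the cupin-like gene AT4G10290 (2.15 ± 0.19), the O-methyltransferase family gene AT4G35160 (2.12 ± 0.12) and the acyltransferase family gene AT5G38130 (1.80 ± 0.08). All 10 were also higher in EL at the lit local leaf and called there, with log2 fold changes of 0.67 to 2.41.

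**Figure D1:**
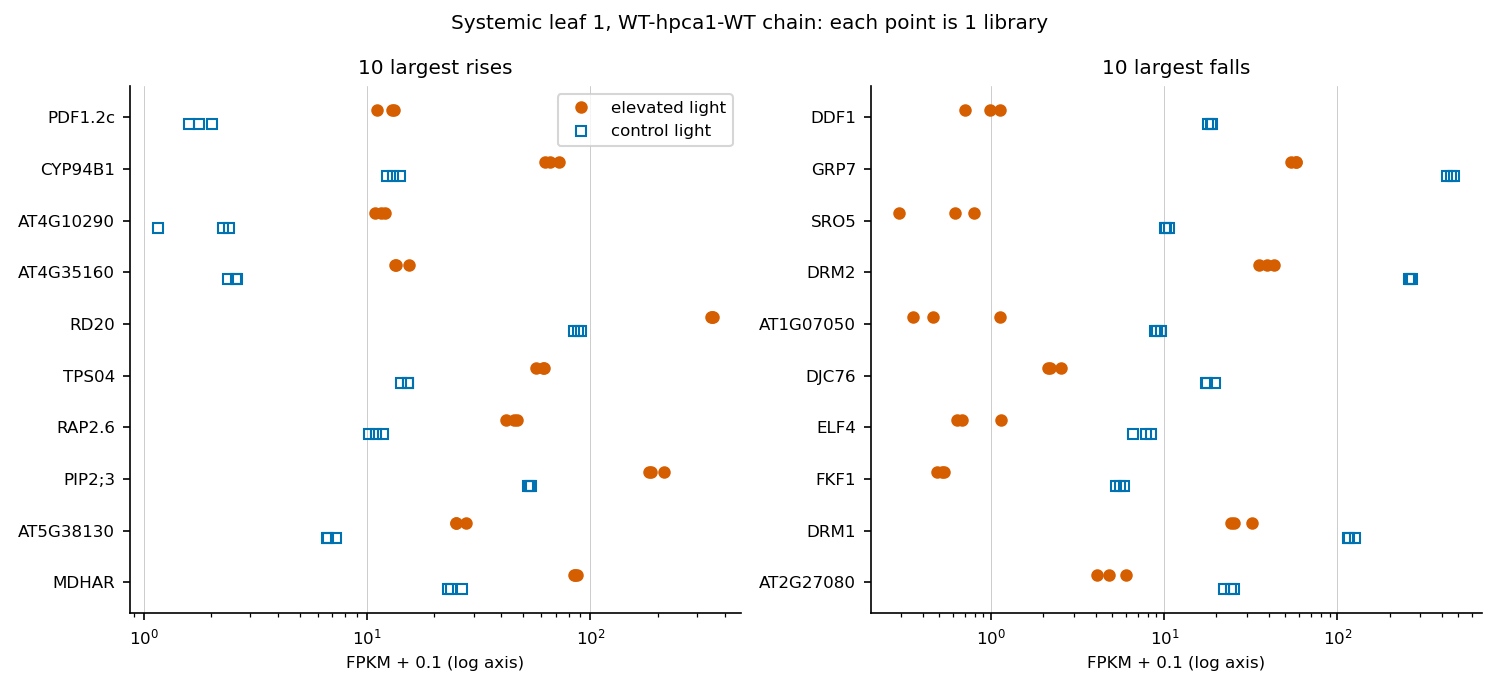
FPKM + 0.1 (log axis) of the 10 largest rises and 10 largest falls at systemic leaf 1 (WT-hpca1-WT chain), 1 point per library, with EL libraries as orange circles above CT libraries as blue squares. In every row the 3 EL points and the 3 CT points form separate groups, as the choice of these genes required.

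The largest falls were in a stress-inducible transcription factor, clock-controlled genes and dormancy genes. DDF1 (AT1G12610), a DREB-type factor of the CBF family that represses gibberellin levels, had 0.60, 0.885 and 1.02 FPKM in EL leaves, against 17.7, 18.6 and 18.6 FPKM in CT leaves, the largest fall among the named genes (-3.40 ± 0.13, adjusted p = 1.24e-22). Nearly all of its CT signal was missing in each EL library. GRP7 (AT2G21660), a glycine-rich RNA-binding protein whose transcript follows the clock, had 57.6, 54 and 57.4 FPKM in EL leaves, against 432, 454 and 473 FPKM in CT leaves (-2.99 ± 0.06). SRO5 (AT5G62520), a gene of salt and oxidative stress, had 0.191, 0.694 and 0.514 FPKM in EL leaves, against a mean of 10.2 ± 0.262 FPKM in CT leaves (SD, n = 3, -2.95 ± 0.12). The EL values of SRO5 lay under 1 FPKM, where the pseudocount understates a fold change. The dormancy-associated genes DRM2 (AT2G33830) and DRM1 (AT1G28330) averaged 38.9 ± 3.85 and 27 ± 4.32 FPKM in EL leaves, against 264 ± 6.27 and 119.7 ± 6.32 FPKM in CT leaves (SD, n = 3 each), with log2 fold changes of -2.74 ± 0.05 and -2.12 ± 0.09. The clock genes ELF4 and FKF1 fell by 2.31 and 2.19 (log2), and their values are given with the clock. The remaining 3 were the DnaJ protein gene DJC76 (AT5G23240, -2.59 ± 0.11), the CCT motif gene AT1G07050 (-2.73 ± 0.15) and the LEA glycoprotein family gene AT2G27080 (-2.08 ± 0.11).

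Promoters of 5 genes are shown because a short motif occurs in them that was more frequent among the strongly changed genes than among tested genes at large, or, for PDF1.2, among the jasmonate and ethylene defence genes. They are the 250 bases before the RefSeq gene start (build TAIR10.1), written 5′ to 3′ on the strand of the gene, with motif matches on either strand in capitals. RD20 (chr2:14146556-14146805, minus strand) and RAP2.6 (chr1:16263555-16263804, plus strand) each hold 1 G-box, CACGTG, which starts 68 and 83 bases before the gene. GRP7 (chr2:9266558-9266807, minus strand) holds 3 evening elements, AAAATATCT, the farthest starting 76 bases before its start, and FKF1 (chr1:25508389-25508638, plus strand) holds 1 at 186 bases before its start. PDF1.2 (chr5:17907639-17907888, minus strand) holds 1 GCC-box, GCCGCC, at 222 bases before its start.
RD20: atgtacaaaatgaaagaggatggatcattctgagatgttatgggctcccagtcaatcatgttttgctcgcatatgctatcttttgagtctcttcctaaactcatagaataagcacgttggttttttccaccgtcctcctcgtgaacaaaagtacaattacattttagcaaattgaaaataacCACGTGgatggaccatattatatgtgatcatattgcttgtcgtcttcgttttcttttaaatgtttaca
RAP2.6: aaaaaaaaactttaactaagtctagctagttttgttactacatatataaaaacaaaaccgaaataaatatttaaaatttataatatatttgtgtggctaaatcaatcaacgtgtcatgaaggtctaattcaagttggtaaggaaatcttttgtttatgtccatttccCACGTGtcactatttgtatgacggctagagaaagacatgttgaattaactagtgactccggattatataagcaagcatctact
GRP7: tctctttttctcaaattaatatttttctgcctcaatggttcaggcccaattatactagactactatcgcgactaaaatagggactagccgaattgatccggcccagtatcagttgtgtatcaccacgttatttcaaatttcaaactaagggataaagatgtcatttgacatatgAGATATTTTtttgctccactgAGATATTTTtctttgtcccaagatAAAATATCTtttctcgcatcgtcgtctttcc
FKF1: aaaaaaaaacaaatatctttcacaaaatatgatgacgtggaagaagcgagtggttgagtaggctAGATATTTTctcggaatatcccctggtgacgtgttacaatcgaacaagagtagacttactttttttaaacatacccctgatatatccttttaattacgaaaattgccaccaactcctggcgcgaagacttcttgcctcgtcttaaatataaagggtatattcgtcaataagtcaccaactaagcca
PDF1.2: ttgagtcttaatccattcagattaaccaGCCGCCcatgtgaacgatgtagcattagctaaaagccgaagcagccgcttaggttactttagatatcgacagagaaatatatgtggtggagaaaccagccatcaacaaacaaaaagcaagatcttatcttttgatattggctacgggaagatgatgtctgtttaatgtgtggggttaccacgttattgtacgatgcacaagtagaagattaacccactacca
In all, 8 motifs were searched on both strands: these 3, the CCA1-binding site (AAAAATCT), the core DRE (CCGAC), the W-box (TTGAC followed by C or T), TATCCA and the CAMTA element (ACGCGT, or either ACGCGG or CCGCGT). Among the 156 promoters of genes called higher by at least 1 (log2), 25 held the G-box, against 7.53% of the 17560 promoters of tested genes. Among the 137 promoters of genes called lower by at least 1, 12.4% held the evening element, against 2.64% of tested promoters, and 11.7% held the CAMTA element, against 3.68%. The W-box was in 35.8% of these 137 and in 28.2% of tested promoters, and the TATCCA motif in 19.0% and 14.5%. The GCC-box was in 3 of 10 promoters of the jasmonate and ethylene defence list, against 2.05% of tested promoters. It was not more frequent among the strongly changed genes, at 0.641% of the 156 promoters and 1.46% of the 137. A match describes these letters only and shows no bound factor.

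Jasmonate genes rose together in the unlit leaf. Jasmonate is a lipid-derived hormone made by lipoxygenases, allene oxide synthase and allene oxide cyclases in chloroplasts and by OPR3 and beta-oxidation in peroxisomes, and its isoleucine conjugate releases MYC2 from JAZ repressors. Of 11 synthesis genes tested, 9 were called higher and 1 lower, with a median log2 fold change of 1.00, where 9.31% of all tested genes were called higher and 20.1% lower. Of 16 signalling and response genes tested, 14 were higher and none lower, with a median of 0.86, against a median of -0.06 over all tested genes. OPR3 (AT2G06050), the oxophytodienoate reductase, had 789.6, 780.2 and 766 FPKM in EL leaves, against 326, 309.5 and 318 FPKM in CT leaves, and a log2 fold change of 1.29 ± 0.02 (adjusted p = 6.27e-32). LOX3 (AT1G17420), a 13-lipoxygenase, had 299, 293 and 284 FPKM in EL leaves, against 99.4, 96.2 and 99.5 FPKM in CT leaves (1.56 ± 0.04). JAR1 (AT2G46370), which joins jasmonate to isoleucine, had 222, 223 and 212 FPKM in EL leaves, against 74.7, 70.0 and 70.7 FPKM in CT leaves (1.6 ± 0.04). For these 3 genes no EL library overlapped a CT library. AOS, AOC1, LOX2, ACX1, AOC2 and LOX4 also rose, by 1.15, 1.24, 1.00, 0.93, 0.79 and 0.38 (log2). AOC3 was not called, at 30.3 ± 0.939 FPKM in EL leaves and 29.4 ± 1.5 FPKM in CT leaves (SD, n = 3 each), and PED1, a thiolase of peroxisomal beta-oxidation at large, fell by 0.15 (log2).

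In signalling, the repressor JAZ10 (AT5G13220) had 98.6, 104 and 95.7 FPKM in EL leaves, against 34.3, 34.2 and 36.6 FPKM in CT leaves (1.48 ± 0.05, adjusted p = 5.28e-25). The transcription factor MYC2 (AT1G32640), which JAZ proteins hold inactive, had 152, 147 and 147 FPKM in EL leaves, against 66.1, 68.6 and 65.4 FPKM in CT leaves (1.15 ± 0.03). TAT3 (AT2G24850), a tyrosine aminotransferase used as a jasmonate marker, had 297, 281 and 278 FPKM in EL leaves, against 108, 109 and 106 FPKM in CT leaves (1.40 ± 0.04). Each of these was higher in all 3 EL libraries than in any CT library. Within the JAZ family the rises ran from 0.26 (JAZ1) and 0.28 (JAZ7) to 1.11 (JAZ3) and 1.48 (JAZ10) on the log2 scale, and JAZ8 was not called (-0.01 ± 0.14, adjusted p = 0.97). The storage and anti-insect protein genes VSP2 and VSP1 rose by 0.68 ± 0.04 and 0.28 ± 0.04. CYP94B3, which inactivates the jasmonate conjugate by hydroxylation, rose by 1.09 ± 0.06, while CYP94C1, which oxidises it further, was not called (0.07 ± 0.05).

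Genes of the jasmonate and ethylene defence list did not follow as a group, with 3 of 9 called higher and 3 lower. Of all tested genes, 9.31% rose and 20.1% fell. The defensin PDF1.2 (AT5G44420) had 40.5, 38.5 and 43 FPKM in EL leaves, against 20.3, 18.1 and 17.5 FPKM in CT leaves (1.09 ± 0.16). PDF1.2b rose by 0.66 ± 0.21 and PDF1.3 was not called (0.13 ± 0.22). The copies PDF1.2, PDF1.2b, PDF1.2c and PDF1.3 are near-identical, so how reads were divided between them is uncertain. ORA59 (AT1G06160), the ethylene response factor that drives PDF1.2, was lower, at 0.634, 0.833 and 0.397 FPKM in EL leaves, against 2.12, 2.95 and 3.16 FPKM in CT leaves (-1.21 ± 0.15). The thionin THI2.1 fell by 0.94 and the chitin-binding protein gene PR4 by 0.34 (log2). Of 13 ethylene genes, 9 fell and 1 rose (2 without CT replicate 3 or EL replicate 1) against those same shares, among the falls ERF6 (-1.04 ± 0.10), the receptor gene ERS2 (-0.83 ± 0.09) and EBF2, an F-box gene of EIN3 turnover (-0.80 ± 0.04). ERF4, a repressor of this family, was the rise (0.62 ± 0.04).

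**Figure D2:**
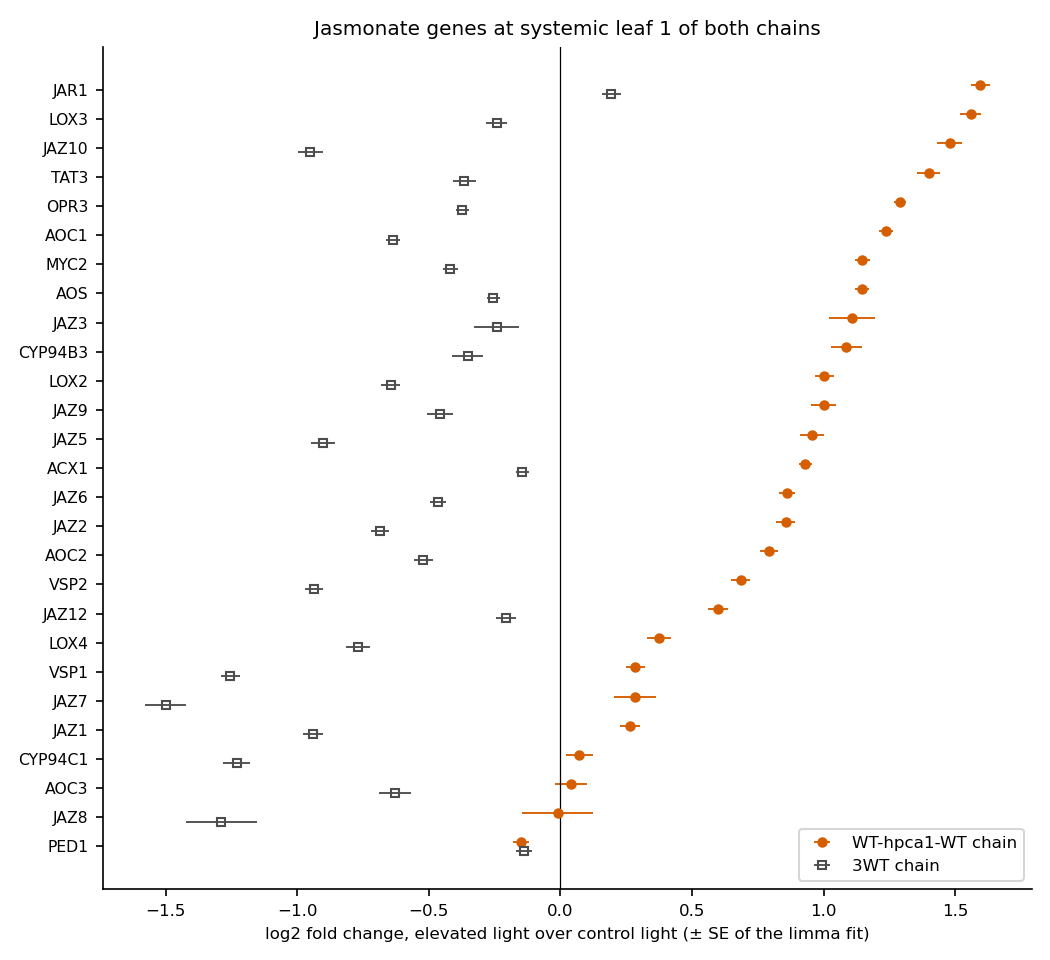
Log2 fold changes (EL over CT) of 27 tested jasmonate genes with their SE, at systemic leaf 1 in both chains (WT-hpca1-WT and 3WT). Most points of the WT-hpca1-WT chain lie right of 0 (JAZ10 at 1.48, OPR3 at 1.29), and most points of the 3WT chain lie left of it (JAZ10 at -0.95, OPR3 at -0.37).

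The 3WT chain did not show these rises, and the difference was tested as an interaction, the light response in the WT-hpca1-WT chain minus that in the 3WT chain. At systemic leaf 1 of the 3WT chain, 1 of 11 synthesis genes was called higher and 10 lower, and of the 16 signalling genes none was higher and 15 were lower, where 7.18% of all tested genes were called higher and 7.58% lower. The interaction was called positive for 10 of 11 synthesis genes and for 16 of 16 signalling genes, where 7.79% of all tested genes were called positive and 15.4% negative. JAZ10 had 29.6, 34.8 and 33.4 FPKM in EL leaves of the 3WT chain, against 65.2, 62 and 64.3 FPKM in its CT leaves, and an interaction of 2.43 ± 0.07 (adjusted p = 6.66e-27). For TAT3 the 3WT chain had 149, 148 and 143 FPKM in EL leaves, against 190.3, 183 and 193 FPKM in CT leaves, and the interaction was 1.76 ± 0.06. The CT leaves of the chains already differed for these genes. JAZ10 averaged 35 ± 1.38 FPKM in CT leaves of the WT-hpca1-WT chain and 63.8 ± 1.67 FPKM in CT leaves of the 3WT chain (SD, n = 3 each, log2 difference -0.85 ± 0.05). In CT leaves, all 11 synthesis genes were called lower in the WT-hpca1-WT chain than in the 3WT chain, and of the 16 signalling genes 12 were lower and 1 (CYP94B3, 0.59 ± 0.06) higher, where 7.67% of tested genes were called lower. In EL leaves the order was the other way for JAZ10, with a mean of 99.6 ± 4.41 FPKM in the WT-hpca1-WT chain and 32.6 ± 2.68 FPKM in the 3WT chain. The interaction and the control comparison share the CT libraries, and whether the chains were grown and sampled together is not given, so chain and batch cannot be told apart.

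The 5 largest positive interactions were led by the defensins, with PDF1.2c at 6.37 ± 0.22, PDF1.2 at 5.48 ± 0.23, PDF1.2b at 4.37 ± 0.30 and PDF1.3 at 3.76 ± 0.31 (log2). PDF1.2 had 2.56, 1.42 and 2.56 FPKM in EL leaves of the 3WT chain, against 78, 57.8 and 60.4 FPKM in its CT leaves (-4.39 ± 0.16). PDF1.2c was listed at 0 in 2 of the 3 EL libraries of the 3WT chain. With a pseudocount of 0.1 in place of 1, the interactions were 9.77 for PDF1.2c, 6.0 for PDF1.2, 6.39 for PDF1.2b, 6.71 for PDF1.3 and 4.70 for AT3G48660, so the order within the defensins is not settled. The transmembrane protein gene AT3G48660 was the fifth (3.08 ± 0.79, adjusted p = 3.19e-03), with widely spread replicates of 7.33, 15.4 and 6.83 FPKM in EL leaves of the WT-hpca1-WT chain, against 5.47, 6.29 and 3.26 FPKM in its CT leaves.

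**Figure D3:**
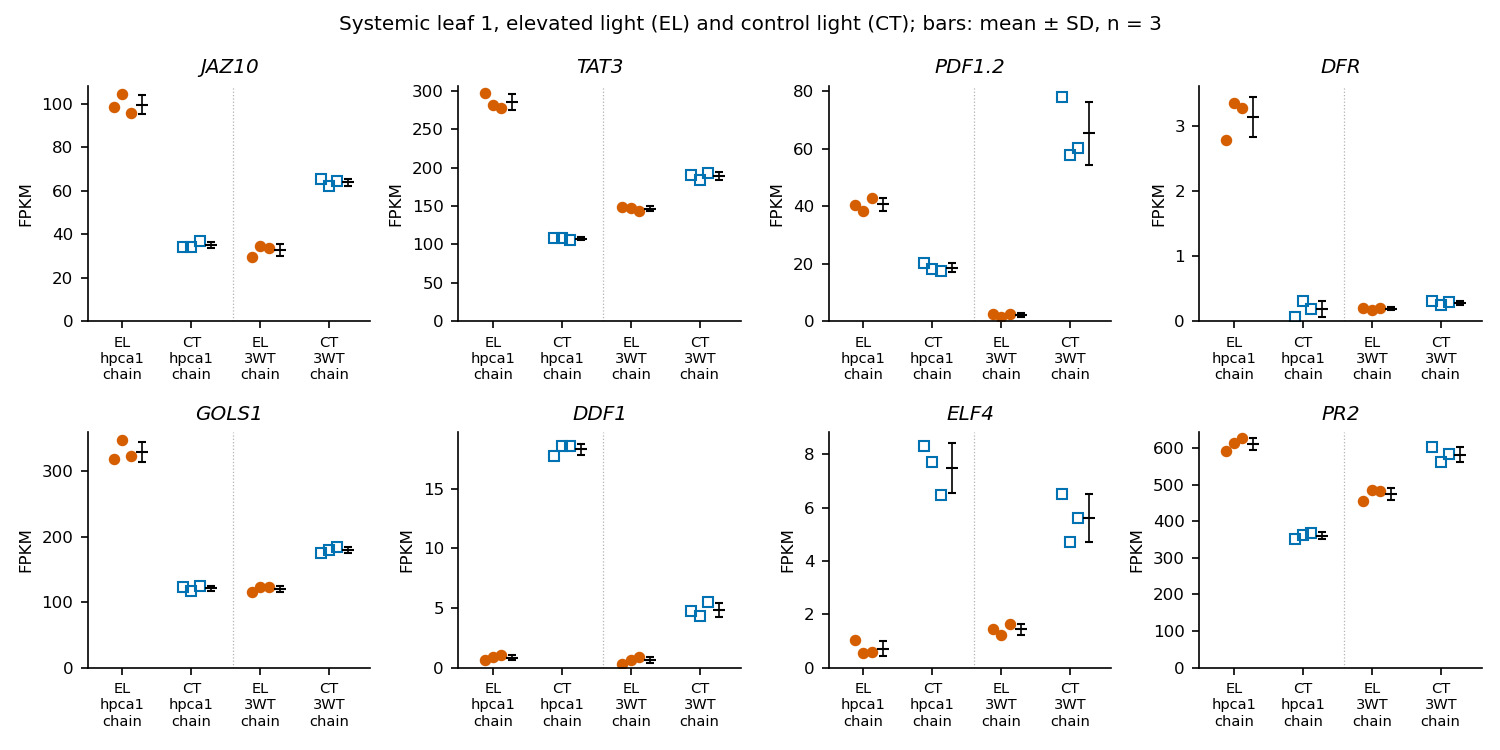
FPKM of 8 genes in the 4 groups of systemic leaf 1 (WT-hpca1-WT EL and CT, then 3WT EL and CT), with each library as a point and the mean ± SD of the 3 libraries. JAZ10 averaged 99.6 FPKM in EL leaves and 35 FPKM in CT leaves of the WT-hpca1-WT chain, and the 3WT chain showed the opposite order.

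Phenylpropanoid and flavonoid genes rose without exception among those tested. Of the 18 genes listed, 13 passed the filter on low values. All 13 were called higher, with a median of 0.69 (log2), where 9.31% of all tested genes were called higher. The filter favours genes that are high in some group, so this count is a description of the 13 only, and TT7, PAP2, MYB12, MYB111 and TT8 did not pass. DFR (AT5G42800), the reductase that opens the anthocyanin branch, had 2.79, 3.35 and 3.28 FPKM in EL leaves, against 0.0622, 0.309 and 0.18 FPKM in CT leaves (1.81 ± 0.13, adjusted p = 1.23e-14). LDOX (AT4G22880), the next enzyme of that branch, had 2.87, 3.1 and 2.68 FPKM in EL leaves, against 0.315, 0.174 and 0.183 FPKM in CT leaves (1.67 ± 0.16). Both genes were near 0 in CT leaves and low in EL leaves as well. PAP1 (AT1G56650), a MYB activator of anthocyanin genes, had 9.77, 12 and 12.3 FPKM in EL leaves, against 3.43, 3.35 and 3.29 FPKM in CT leaves (1.5 ± 0.10). Early and general steps had smaller values, with CHS, the chalcone synthase, at 0.56 ± 0.04, F3H at 0.64 ± 0.06, PAL1 at 0.76 ± 0.05 and C4H at 0.39 ± 0.03. Against the 3WT chain, the interaction was called positive for 11 of the 13, the largest being DFR (1.92 ± 0.18) and LDOX (1.72 ± 0.23). Among all tested genes, 7.79% had a positive interaction and 15.4% a negative one. In the lit leaf 10 of the 13 also rose and none fell (median 0.55), where 13.6% of tested genes rose there, and at systemic leaf 3 12 of the 13 rose, where 13.4% did. Among all tested genes, the difference between unlit and lit leaf was called positive for 29.6% as deposited and negative for 10.5%. It was called positive for 4 and negative for 5 of the 13. DFR and LDOX were among those not called in the lit leaf (0.20 ± 0.13 and -0.11 ± 0.16), and their difference between the leaves was 1.6 ± 0.18 and 1.78 ± 0.23. The epidermis, where much of the flavonoid pathway is active, had the higher marker sum given above, and its part in this result was not tested.

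Most galactinol, raffinose and indole glucosinolate genes tested also rose. GOLS1 (AT2G47180), a galactinol synthase that starts raffinose synthesis, had 319.8, 348 and 323 FPKM in EL leaves, against 123, 116 and 124 FPKM in CT leaves (1.44 ± 0.05, adjusted p = 1.48e-23). It was lower in EL leaves of the 3WT chain (-0.58 ± 0.05), and the interaction was 2.02 ± 0.07. Of 7 galactinol and raffinose genes tested, 6 rose (where 9.31% of all tested genes rose and 20.1% fell), among them GOLS2 (0.88 ± 0.09) and the raffinose synthase gene RS5 (0.72 ± 0.05), and 1 fell, the raffinose family gene DIN10 (-1.01 ± 0.05), which is also known to be induced by darkness and sugar starvation. Of 10 indole glucosinolate genes, 7 rose, 2 fell and 1 was not called. MYB34 (AT5G60890), an activator of these tryptophan-derived defence compounds, had 54.2, 55.6 and 50.9 FPKM in EL leaves, against 23.9, 21.6 and 23.2 FPKM in CT leaves (1.19 ± 0.07). MYB51 (AT1G18570), another activator of the same pathway, was lower, at 6.2, 6.48 and 6.79 FPKM in EL leaves, against 14.3, 14.2 and 14.4 FPKM in CT leaves (-1.03 ± 0.06). The core enzymes CYP79B2, CYP79B3 and CYP83B1 rose by 0.83, 0.84 and 0.67, and CYP81F2, which modifies the product, fell by 0.67 (log2). Of 9 aliphatic glucosinolate genes, 4 rose, none fell and 5 were not called, the largest rise being 0.38 (FMO GS-OX1).

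Of 15 genes of abscisic acid metabolism and its type 2C phosphatases, 8 rose, 1 fell and 6 were not called, where 9.31% of all tested genes rose and 20.1% fell. The phosphatase gene HAI1 (AT5G59220), induced by abscisic acid, had 12.4, 13.9 and 12 FPKM in EL leaves, against 4.34, 5.38 and 4.29 FPKM in CT leaves (1.28 ± 0.11). PP2CA, HAI2, HAB1, ABI1, HAB2 and ABI2 rose by 0.77, 0.67, 0.47, 0.44, 0.37 and 0.29. Synthesis genes had smaller values, with the zeaxanthin epoxidase gene ABA1 at 0.11 ± 0.02 and NCED3, the rate-limiting dioxygenase, not called (0.13 ± 0.06, adjusted p = 0.0856). The catabolic gene CYP707A3 was the fall, at -0.93 ± 0.10. Of 13 plasma membrane aquaporins, 8 rose and 2 fell (1 when any 1 library was left out), with PIP2A at 1489 ± 41 FPKM in EL leaves and 914 ± 12.8 FPKM in CT leaves (SD, n = 3 each, 0.70 ± 0.03). Of these 13, 7 rose and 1 fell in the 3WT chain, where 7.18% of tested genes rose there and 7.58% fell. Of 7 nitrogen assimilation genes, 5 rose and 1 fell in both chains, and the nitrate reductase gene NIA1 was higher by 0.81 ± 0.04 in the WT-hpca1-WT chain and by 0.87 ± 0.04 in the 3WT chain, with an interaction that was not called (-0.06 ± 0.06, adjusted p = 0.505).

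**Figure D4:**
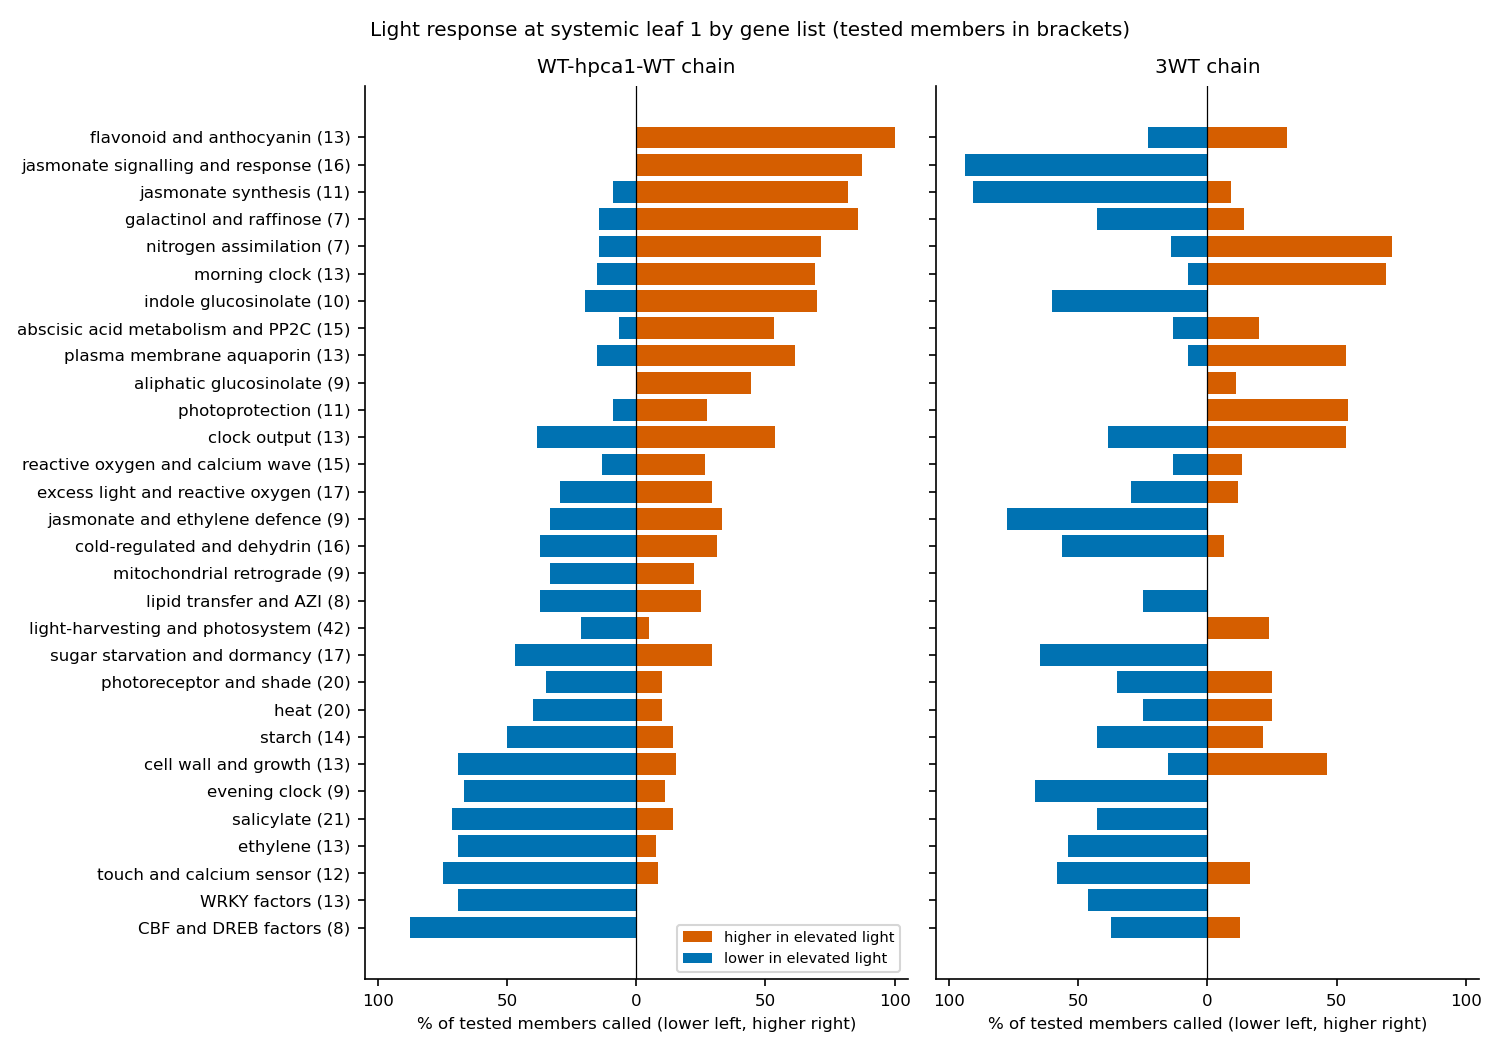
Percentage of tested members called higher (right) and lower (left) in EL for each of 30 gene lists, at systemic leaf 1 in both chains (WT-hpca1-WT and 3WT). In the WT-hpca1-WT chain 13 of 13 tested flavonoid genes (18 were listed) were higher and 15 of 21 salicylate genes were lower. Among all tested genes, 9.31% were higher and 20.1% lower in that chain.

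Most evening-phased clock genes fell, and most morning-phased genes rose slightly. In the plant clock, the morning MYB factors CCA1 and LHY and the evening gene TOC1 repress each other, and the evening complex of ELF3, ELF4 and LUX acts at dusk. Of 9 evening genes tested, 6 fell and 1 rose, with a median of -0.86 (log2), where 9.31% of all tested genes rose and 20.1% fell. ELF4 (AT2G40080) had 1.03, 0.533 and 0.579 FPKM in EL leaves, against 8.3, 7.7 and 6.48 FPKM in CT leaves (-2.31 ± 0.20, adjusted p = 4.78e-12). FKF1 (AT1G68050), a blue-light F-box protein of the evening, had 0.432, 0.385 and 0.42 FPKM in EL leaves, against 5.72, 5.17 and 5.41 FPKM in CT leaves (-2.19 ± 0.09, and -3.43 with a pseudocount of 0.1). PRR3 (AT5G60100) had 0.303, 0.362 and 0.419 FPKM in EL leaves, against 4.42, 4.03 and 4.3 FPKM in CT leaves (-1.95 ± 0.09). In each of these genes the EL libraries were at a small fraction of the CT libraries. TOC1, GI and ELF3 fell by 1.00, 0.86 and 0.83, LUX rose by 0.46 (log2), and ZTL and LKP2 were not called (0.07 ± 0.04 and 0.05 ± 0.05). The promoters of 4 of 10 evening genes hold the evening element.

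Of 13 morning genes, 9 rose and 2 fell, where 9.31% of all tested genes rose and 20.1% fell. LHY (AT1G01060) had 67.5, 63.3 and 62.6 FPKM in EL leaves, against 42.1, 41.4 and 40.7 FPKM in CT leaves (0.63 ± 0.04). CCA1 rose by 0.19 ± 0.04 and RVE1, a MYB factor that links the clock to auxin, by 1.01 ± 0.09. PRR5 (AT5G24470), which represses CCA1 from midday on, was the large fall in this list, at 3.17, 3.77 and 2.26 FPKM in EL leaves, against 16, 16.4 and 14.8 FPKM in CT leaves (-2.06 ± 0.09). Among 13 clock outputs 7 rose and 5 fell. The falls were GRP7, DJC76, AT4G33980 (-2.17 ± 0.11), COR27 (-1.44 ± 0.13) and GRP8 (-0.86 ± 0.06), and the rises included CDF1 (0.51 ± 0.05) and COL1 (0.51 ± 0.04).

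In the 3WT chain 6 of 9 evening genes fell and none rose, and 9 of 13 morning genes rose and 1 fell, where 7.18% of tested genes rose there and 7.58% fell. GRP7 had 82.9, 85.2 and 90.9 FPKM in EL leaves of the 3WT chain, against 304, 328 and 305 FPKM in its CT leaves, and the interaction was -1.14 ± 0.09 (adjusted p = 7.86e-13). PRR5 fell by 0.97 in the 3WT chain (log2), with an interaction of -1.09 ± 0.12, and PRR3 by 1.1, with an interaction of -0.84 ± 0.12. The interaction was called negative for 5 of the 9 evening genes and positive for 1, where 15.4% of tested genes were called negative and 7.79% positive. The interactions of ELF3 and the output COR27 were not called (-0.15 ± 0.10 and -0.10 ± 0.19). CT leaves of the WT-hpca1-WT chain held more GRP7, PRR5, PRR3 and FKF1 than those of the 3WT chain, by 0.54 ± 0.06, 0.64 ± 0.09, 0.69 ± 0.09 and 0.69 ± 0.09 (log2). In the lit leaf GRP7 changed by -4.0 ± 0.06 and FKF1 by -3.13 ± 0.09. Among all tested genes, 29.6% had a called positive difference in response from the lit leaf as deposited. Of the 6 evening genes that fell, FKF1, ELF3, PRR3 and GI fell further in the lit leaf, by a tested difference of 0.35 to 0.94 (log2), and for ELF4 and TOC1 no difference was called (0.34 ± 0.29 and -0.07 ± 0.10).

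Sugar starvation and starch genes shifted as well. DRM1, DRM2, SEN1 and DIN10, known as markers of darkness or low sugar, fell by 2.12, 2.74, 1.11 and 1.01 (log2), yet 5 of the 17 tested genes of this list rose, led by the mannose 6-phosphate isomerase gene DIN9 (0.90 ± 0.09), while 8 fell. In the 3WT chain 11 of the 17 sugar starvation genes fell and none rose, where 7.58% of tested genes fell and 7.18% rose. Their interaction was called positive for 8 and negative for 4, where 7.79% of tested genes were positive and 15.4% negative. Of 14 starch genes, 7 fell and 2 rose, where 9.31% of all tested genes rose and 20.1% fell. The falls were led by breakdown genes, the debranching enzyme ISA3 (-1.09 ± 0.06), the phosphoglucan water dikinase PWD (-0.94 ± 0.05) and the disproportionating enzyme DPE1 (-0.91 ± 0.06). GBSS1, the granule-bound synthase that makes amylose, was higher, at 129.7 ± 2.18 FPKM in EL leaves and 77.5 ± 1.69 FPKM in CT leaves (SD, n = 3 each, 0.74 ± 0.03). The 3WT chain had 6 falls and 3 rises among the 14 starch genes, where 7.18% of tested genes rose there and 7.58% fell.

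Most cold-type factors and touch genes fell at systemic leaf 1. Of 8 CBF and DREB factors tested, 7 fell and none rose, with a median of -0.76 (log2), where 9.31% of all tested genes rose and 20.1% fell. DDF2 (AT1G63030), the close relative of DDF1, had 0, 0.151 and 0 FPKM in EL leaves, against 3.62, 4.21 and 3.52 FPKM in CT leaves (-2.19 ± 0.14), and was thus listed at 0 in 2 EL libraries. CBF1, CBF2 and CBF3, the cold-response activators, fell by 0.94, 0.59 and 0.97, with means of 2.24 to 4.66 FPKM in CT leaves. Their target lists did not fall as a group, as 6 of 16 cold-regulated and dehydrin genes fell and 5 rose against those same shares, COR15B by -0.89 ± 0.05 and KIN1 by 0.91 ± 0.09.

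Of 12 touch and calcium sensor genes, 9 fell and 1 rose, with a median of -0.78, where 9.31% of all tested genes rose and 20.1% fell. XTH22 (AT5G57560), the touch gene TCH4 of wall remodelling, had 6.6, 6 and 7.6 FPKM in EL leaves, against 19.1, 20.0 and 19.5 FPKM in CT leaves (-1.41 ± 0.09). CML12 (AT2G41100), the calmodulin-like touch gene TCH3, had 269, 278 and 283 FPKM in EL leaves, against 462, 451 and 468 FPKM in CT leaves (-0.73 ± 0.03). The calcium-binding gene AT3G01830 had 3.13, 2.4 and 1.99 FPKM in EL leaves, against 15, 12.9 and 12.1 FPKM in CT leaves (-2.04 ± 0.10). The 3 genes were lower in every EL library than in any CT library. CML39 was the rise (0.93 ± 0.15). In the lit leaf 9 of the 12 were higher and 2 lower, where 13.6% of tested genes were higher and 48.9% lower. XTH22 averaged 26.4 ± 1.15 FPKM in lit EL leaves and 10.5 ± 0.516 FPKM in CT leaves of that position (SD, n = 3 each), a difference between the responses of -2.66 ± 0.13 (adjusted p = 1.63e-19).

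CT leaves differed between the chains for the same lists. Among them, 6 of 8 CBF and DREB factors and 9 of 12 touch genes were called higher in the WT-hpca1-WT chain than in the 3WT chain and none lower, where 7.39% of tested genes were called higher. DDF1 averaged 18.3 ± 0.495 FPKM in CT leaves of the WT-hpca1-WT chain and 4.85 ± 0.589 FPKM in CT leaves of the 3WT chain (SD, n = 3 each, 1.73 ± 0.13). In EL leaves it averaged 0.834 ± 0.214 FPKM in the WT-hpca1-WT chain and 0.621 ± 0.266 FPKM in the 3WT chain. CML38 (AT1G76650) averaged 47.6 ± 1.34 FPKM in CT leaves of the WT-hpca1-WT chain and 18 ± 0.622 FPKM in those of the 3WT chain (1.36 ± 0.10), and in EL leaves 21.1 ± 3.31 and 10.6 ± 1.48 FPKM in the same order. After DDF1, the largest excess in CT leaves was that of PHI-1, a gene of the phosphate-induced family (1.38 ± 0.14), and next to CML38 came the salicylate methyltransferase gene BSMT1 (1.32 ± 0.12) and the cysteine proteinase gene AT2G27420 (1.27 ± 0.14). The largest deficits in CT leaves were PDF1.2c (-2.69 ± 0.16), PDF1.2b (-2.45 ± 0.21), PDF1.3 (-2.3 ± 0.22), PDF1.2 (-1.75 ± 0.16) and the HSP20-like gene AT4G21870 (-1.47 ± 0.11). In all, 2821 genes (15.1%) were called between the CT leaves of the chains, 45 of them (0.24%) with a difference of at least 1 (log2).

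Most salicylate genes fell. Salicylate is made through ICS1 and, with the regulators EDS1, PAD4, SARD1 and CBP60G, drives defence against biotrophic pathogens. Of 21 genes tested, 15 fell and 3 rose, with a median of -0.49 (log2), where 9.31% of all tested genes rose and 20.1% fell. ICS1 (AT1G74710), the isochorismate synthase, had 20.8, 21.1 and 21.3 FPKM in EL leaves, against 41.2, 40.7 and 41.7 FPKM in CT leaves (-0.94 ± 0.05, adjusted p = 2.61e-19). SARD1 (AT1G73805), an activator of ICS1, had 14.4, 13.9 and 14.2 FPKM in EL leaves, against 31.9, 30.9 and 31.6 FPKM in CT leaves (-1.1 ± 0.06). PAD4 (AT3G52430) had 19.5, 19.1 and 18.1 FPKM in EL leaves, against 31.8, 33 and 33.7 FPKM in CT leaves (-0.77 ± 0.04). Each of the 3 was lower in every EL library than in any CT library. NIMIN1, a regulator that binds NPR1, fell by 1.45, the receptor gene NPR3 by 1.02 and CBP60G by 0.89. The rises were BSMT1 (1.00 ± 0.12), PR5 (0.19 ± 0.04) and the glucanase gene PR2 (AT3G57260), with 592, 613 and 627 FPKM in EL leaves, against 352, 362 and 368 FPKM in CT leaves (0.76 ± 0.03). PR1 was not called (0.12 ± 0.06, adjusted p = 0.162).

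In the 3WT chain 9 of the 21 fell and none rose, where 7.18% of tested genes rose there and 7.58% fell. ICS1 there had 35, 33.7 and 32.5 FPKM in EL leaves, against 34.8, 33 and 34.3 FPKM in CT leaves, and its interaction was -0.92 ± 0.06 (adjusted p = 1.94e-14). The interaction was called negative for 12 of the 21 genes and positive for 4, where 15.4% of tested genes were called negative and 7.79% positive. Of 13 WRKY factors, 9 fell and none rose in the WT-hpca1-WT chain, where 9.31% of tested genes rose and 20.1% fell. WRKY46 fell by 0.71 and WRKY18 by 0.66, and in the 3WT chain 6 of the 13 fell and none rose. The lipid transfer gene AZI1 (AT4G12470), needed for priming of systemic defence, had 1.63, 1.98 and 1 FPKM in EL leaves, against 8.07, 9.27 and 6.64 FPKM in CT leaves (-1.83 ± 0.15). It was not called in the 3WT chain (-0.01 ± 0.15), and its interaction of -1.82 ± 0.22 was the largest negative one. The other 4 were AT3G01830 (-1.66 ± 0.14), the expansin EXPA8 (-1.62 ± 0.09), the transcription factor NAC061 (-1.56 ± 0.26) and ARD3, an acireductone dioxygenase (-1.55 ± 0.15).

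Most growth genes fell in this chain. EXPA8 (AT2G40610) had 42.1, 41.2 and 41.4 FPKM in EL leaves, against 69.9, 69.7 and 68.5 FPKM in CT leaves (-0.73 ± 0.06), and in the 3WT chain 72.3, 72.5 and 72.9 FPKM in EL leaves, against 41.3, 35 and 39.3 FPKM in CT leaves (0.90 ± 0.06). Of 13 cell wall and growth genes, 9 fell and 2 rose (1 without CT replicate 2 or 3 or EL replicate 2) in the WT-hpca1-WT chain. Among all tested genes, 20.1% fell and 9.31% rose there. In the 3WT chain 6 of the 13 rose and 2 fell, where 7.18% of tested genes rose and 7.58% fell. The interaction was negative for 8 and positive for 1, where 15.4% of tested genes were called negative and 7.79% positive. XTH18 had the largest fall, at -1.73 ± 0.12.

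Most heat genes that rose in the lit leaf were not higher in the unlit leaf. All 20 tested heat genes rose in the lit leaf, with a median of 5.83 (log2), where 62.5% of tested genes were called, 13.6% higher and 2.33% higher by at least 1 (log2). At systemic leaf 1, 2 rose (1 without EL replicate 1), 8 fell and the median was -0.10. Of all tested genes, 9.31% rose and 20.1% fell at that leaf. HSP101 (AT1G74310), a disaggregating chaperone, had 2.58, 2.85 and 2.92 FPKM in unlit EL leaves, against 2.61, 2.25 and 2.41 FPKM in CT leaves (not called, 0.14 ± 0.07), and 546, 558 and 554 FPKM in lit EL leaves, against 2.64, 2.47 and 2.08 FPKM in CT leaves of that position. The difference between the responses was -7.21 ± 0.10 (adjusted p = 6.26e-36). The small heat shock protein gene HSP17.6A had 0.53, 1.17 and 0.75 FPKM in unlit EL leaves, against 1.98, 2.85 and 1.37 FPKM in CT leaves (-0.74 ± 0.17), and a difference from the lit leaf of -8.11 ± 0.24. The rises in the unlit leaf were the coactivator gene MBF1C (0.41 ± 0.11) and the heat factor HSFB2A (0.34 ± 0.06). In the 3WT chain 5 of 20 rose and 5 fell, where 7.18% of tested genes rose and 7.58% fell. Of the interactions 3 were called, all negative, where 15.4% of tested genes were called negative and 7.79% positive.

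Reactive oxygen genes were mixed. Of 17 excess light genes, 5 rose and 5 fell, where 9.31% of all tested genes rose and 20.1% fell. In the lit leaf 11 rose and 5 fell, where 13.6% of tested genes rose and 48.9% fell. ZAT12, a zinc finger marker of reactive oxygen signalling, had 9.2, 10.2 and 9.79 FPKM in unlit EL leaves, against 8.47, 9.02 and 7.85 FPKM in CT leaves (not called, 0.18 ± 0.12), and rose by 2.52 ± 0.12 in the lit leaf. RRTF1 (AT4G34410), a redox-responsive ethylene response factor, had 2.79, 3.1 and 3.59 FPKM in unlit EL leaves, against 13.8, 11.1 and 11.6 FPKM in CT leaves (-1.66 ± 0.10). It rose in the lit leaf (1.69 ± 0.10) and fell in the 3WT chain (-1.74 ± 0.10), with an interaction that was not called (0.08 ± 0.15). The light-induced chlorophyll-binding protein gene ELIP1 rose by 0.75 ± 0.13. Among 15 genes of the reactive oxygen and calcium wave, 4 rose and 2 fell (1 without CT replicate 1 or 3 or EL replicate 1 or 3). The channel gene MSL3 (AT1G58200) had 74.6, 73.8 and 71.5 FPKM in EL leaves, against 39.8, 39 and 38.1 FPKM in CT leaves (0.90 ± 0.04), and the glutamate receptor-like gene GLR3.3 rose by 0.36 ± 0.06. The NADPH oxidase gene RBOHD was not called (-0.02 ± 0.05, adjusted p = 0.817).

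**Figure D5:**
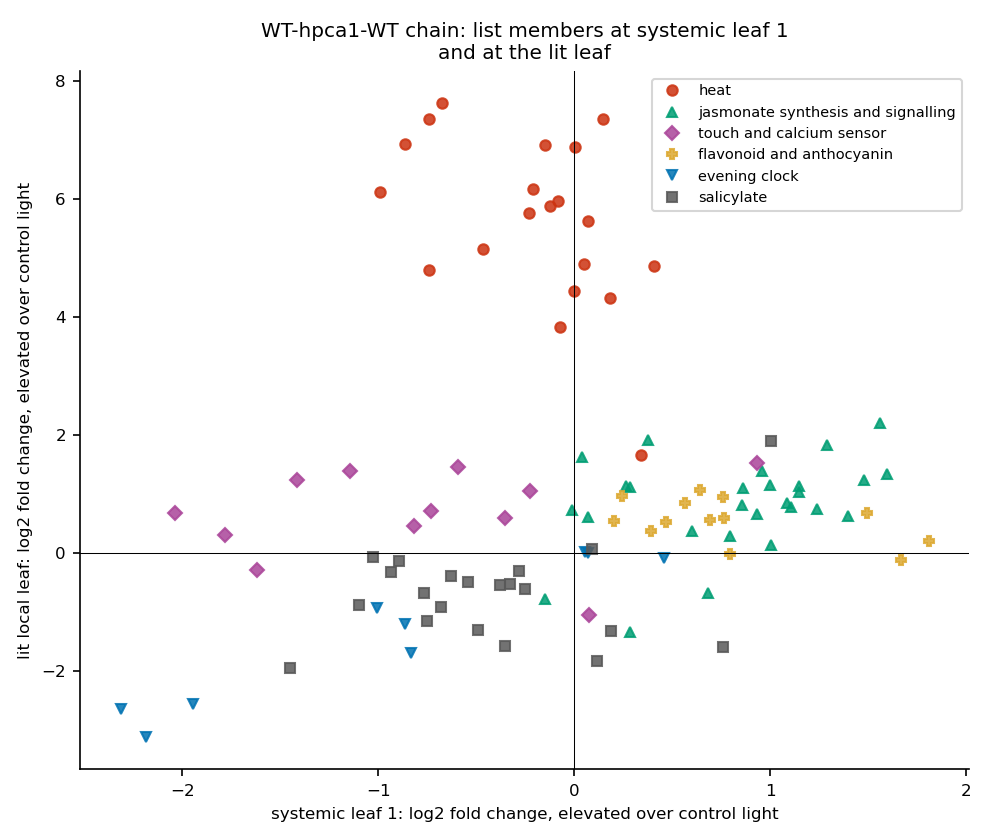
Log2 fold change (EL over CT) at systemic leaf 1 (horizontal) and at the lit local leaf of the WT-hpca1-WT chain (vertical) for genes of 6 lists. Heat genes lie far up near the vertical line (HSP101 at 0.14 and 7.35). Jasmonate genes lie mostly right of that line in the upper part, and touch genes mostly left of it.

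Against the lit leaf, 7511 genes (40.1%) had a called difference in response, with 5539 positive and 1972 negative, and 603 (3.22%) reached at least 1 (log2). This split turned with scaling, since 26.3% were negative as deposited, 54.3% after median-of-ratios scaling, which moved the median difference of all genes by -0.12 (log2), and 41.0% after quantile normalization. The 5 largest negative differences were all chaperone genes, AT1G53540 (-8.31 ± 0.22), HSP17.6A, HSP17.6II (-7.80 ± 0.22), AT1G59860 (-7.35 ± 0.26) and HSP101. Small heat shock protein genes have close copies, so single values are uncertain. PR2 rose in the unlit leaf and fell by 1.59 (log2) in the lit one, a difference of 2.35 ± 0.05. The calcium exchanger gene CAX3 (2.3 ± 0.08) and the beta-glucosidase gene PYK10 (2.19 ± 0.11) showed the same signs. AT1G17860, a protease inhibitor family gene, differed by 3.07 ± 0.39, with no call in the unlit leaf (-0.37 ± 0.28) and a fall in the lit leaf (-3.44 ± 0.28). The uncharacterized gene AT2G01021 had the largest positive value, 4.09 ± 1.67, but was listed at 0 in 1 of 3 lit EL libraries, and without that library (EL local leaf replicate 2) the value was 0.98 and not called, while without EL replicate 1 of that leaf it was 6.46.

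Genes called at systemic leaf 1 were often called the same way elsewhere in the chain. Of the 1745 higher genes, 979 (56.1%) were also higher in the lit leaf, which is 38.3% of the genes higher there, where 13.6% of all tested genes were. Of the 3773 lower genes, 2642 (70.0%) were lower in the lit leaf (28.8% of those lower there), where 48.9% of tested genes were. At systemic leaf 3, a leaf of the far wild-type plant, 1228 of the higher genes (70.4%) were also higher, which is 48.9% of those higher there, against 13.4% of tested genes, and 1608 of the lower genes (42.6%) were lower (61.0% of those lower there), against 14.1% of tested genes. Without CT replicate 3 of systemic leaf 3, which correlated with the others of its group at 0.984 and 0.986 where those correlated at 0.995, 1177 (67.5%) were higher and 1552 (41.1%) lower in both. At systemic leaf 2, the hpca1-1 leaf, 479 higher genes (27.5%) were also higher, against 6.21% of tested genes, and 1143 lower genes (30.3%) were lower, against 11.7%. At systemic leaf 1 of the 3WT chain, 312 (17.9%) of the higher genes were higher and 457 (26.2%) were lower, against 7.18% and 7.58% of tested genes. Of the lower genes, 606 (16.1%) were lower and 337 (8.93%) higher there. Across the 18735 tested genes, the log2 fold changes at systemic leaf 1 correlated with those of systemic leaf 3 at Pearson's r = 0.44, of the lit leaf at 0.29, of systemic leaf 2 at 0.25 and of the 3WT chain at 0.07. Genes called higher by at least 1 (log2) made up 0.87% of tested genes at systemic leaf 1, 0.0801% at systemic leaf 2 and 0.641% at systemic leaf 3, against 0.0267% for systemic leaf 1 of the 3WT chain. With falls of that size counted as well, the shares were 1.68% at systemic leaf 1, 0.475% at systemic leaf 2 and 1.41% at systemic leaf 3, against 0.459% (86 genes, 81 of them lower) for the 3WT chain. The correlations are descriptions across genes, which are not independent, and no library is shared between the comparisons of this paragraph.

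The named genes also varied along the chain. RD20 rose by 0.17 ± 0.04 at systemic leaf 2 and 0.97 ± 0.04 at systemic leaf 3, CYP94B1 by 0.74 ± 0.07 and 2.11 ± 0.07, and JAZ10 by 0.23 ± 0.05 and 1.25 ± 0.05 (log2). GRP7 changed by -1.92 ± 0.06 and -3.72 ± 0.06 at the same leaves. DFR, higher at systemic leaf 1, was not called in the hpca1-1 leaf (0.05 ± 0.13) and was higher at systemic leaf 3 (0.71 ± 0.13). Against the 3WT chain, 4353 genes (23.2%) had a called interaction, 1459 positive and 2894 negative, and 454 (2.42%) reached at least 1 (log2), 378 of them positive. The share of negative calls was 66.5% as deposited, 51.6% after median-of-ratios scaling and 58.5% after quantile normalization.

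Light-harvesting, photoreceptor, photoprotection and mitochondrial genes included few called genes of large change. Beside the counts below, 9.31% of all tested genes rose and 20.1% fell as deposited. Of 42 light-harvesting and photosystem genes, 2 were higher and 9 lower as deposited (4 lower without EL replicate 1), but 7 were higher and 3 lower after median-of-ratios scaling, so no direction is given. Of 20 photoreceptor and shade genes, 7 fell and 2 rose, the photoreceptor genes CRY2 and PHYA by -0.36 ± 0.03 and -0.31 ± 0.04. Of 11 photoprotection genes 3 rose and 1 fell, the violaxanthin de-epoxidase gene NPQ1 by -0.39 ± 0.03. Among 9 genes of mitochondrial retrograde signalling 2 rose (1 without EL replicate 1, none without CT replicate 1 or 3 or EL replicate 2) and 3 fell, the alternative oxidase gene AOX1A by -0.33 ± 0.06.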

How the data were processed

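The values are FPKM per gene and library, deposited by the authors in 1 table of 48 chain libraries. Per the submitters' processing notes, which give neither order nor role, they used Trim Galore 0.6.10, FastQC 0.12.1, HISAT2 2.2.1, SAMtools 1.18, Cufflinks and Cuffdiff 2.2.1 and the TAIR10 build. How FPKM were scaled between libraries and whether counting used strand are not given in the sources used here, so antisense partners cannot be told apart.

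From these values, log2(FPKM + 1) was fitted with limma 3.58.1 (R 4.3.3, eBayes with trend) for 18735 of 32824 identifiers with at least 1 FPKM in at least 3 libraries. All 16 groups of 3 libraries shared 1 estimate of the spread. The 4 comparisons (light response, its difference from the 3WT chain and from the lit leaf, and CT leaves between chains) were adjusted by Benjamini-Hochberg over all tested genes and called under 0.05. They share libraries with each other. For any single gene an exact two-sided permutation test of 3 against 3 libraries cannot go below 0.1. Fold changes on this scale understate changes of low genes.

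Named genes were the 10 largest rises and falls among called protein-coding genes with a mean of at least 5 FPKM in the higher group and no overlap, the 5 largest differences each way in the other comparisons, HPCA1, and members of 30 gene lists holding 432 genes, of which 407 were tested. The leaf position, lists and tests were chosen with earlier results of these data known. The model was tested on simulated data. Replicate numbers were not treated as pairs in the main fit. P-values measure the spread between pooled libraries. Alternatives were the pseudocount, the filter, the scaling, the spread estimate, the replicate block, a minimum change and each library left out. Leaving out CT replicate 3 of systemic leaf 3 was chosen after seeing the data. Promoters are RefSeq's (TAIR10.1), and 32539 identifiers matched RefSeq. Python 3.11.15, pandas 2.3.3, numpy 2.4.6 and matplotlib 3.10.9 were used.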

Additional observations from a re-analysis of the deposited data

Results flagged for a closer look

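The light response at systemic leaf 1 differed between the WT-hpca1-WT chain and the 3WT chain for 4353 genes by a test of the difference itself. The 5 largest positive differences (log2) were PDF1.2c at 6.37, PDF1.2 at 5.48, PDF1.2b at 4.37, PDF1.3 at 3.76 and AT3G48660 at 3.08. The 5 largest negative ones were AZI1 at -1.82, AT3G01830 at -1.66, EXPA8 at -1.62, NAC061 at -1.56 and ARD3 at -1.55.

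The response differed from that of the lit leaf for 7511 genes by the same kind of test. The 5 largest positive differences (log2) were AT2G01021 at 4.09, AT1G17860 at 3.07, PR2 at 2.35, CAX3 at 2.3 and PYK10 at 2.19. The 5 largest negative ones were AT1G53540 at -8.31, HSP17.6A at -8.11, HSP17.6II at -7.80, AT1G59860 at -7.35 and HSP101 at -7.21.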

How the results depend on the processing

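With a change of at least 1 (log2) required, systemic leaf 1 had 163 higher and 151 lower genes (314 in all), 454 against the 3WT chain (378 positive, 76 negative), 603 against the lit leaf (153 positive, 450 negative) and 45 between CT leaves (23 higher, 22 lower). Median-of-ratios scaling gave 2584 positive and 3071 negative differences from the lit leaf, and quantile normalization gave 3483 positive ones. Leaving out 1 library at a time gave 4759 to 4908 called genes at systemic leaf 1 (1533 to 1625 higher, 3173 to 3336 lower), 3873 to 4112 against the 3WT chain (1345 to 1411 positive, 2487 to 2733 negative), 6764 to 7205 against the lit leaf (4824 to 5345 positive, 1827 to 1940 negative) and 2218 to 2373 between CT leaves (1091 to 1244 higher, 1093 to 1240 lower). Replicates with the same number correlated at 0.14, -0.03 and 0.08 in their deviations, and those with different numbers at -0.19 to 0.13. With 3 replicates per group, these values cannot decide whether the numbers pair the libraries. A fit with the replicate block called 5419 genes at systemic leaf 1, 1734 of them higher. Over the 30 lists, 23 of 480 counts moved by more than 1.5 times in other settings, mostly counts of 1 to 4 genes, and 21 of 360 when a library was left out. Among the named genes, AT2G01021 alone lost its call, in 7 other settings and in 9 of its fits without 1 library, and no direction reversed in any setting run. With a pseudocount of 0.1, values of PDF1.2c, PDF1.3 and AT3G48660 (difference from the 3WT chain) and FKF1 moved by more than 1.5 times, to 9.77, 6.71, 4.70 and -3.43. The cause was not tested. With unknown depth, changes of genes near 1 FPKM are the least certain.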

Other observations

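Other gene families, picked after their values were seen and given without a test, also shifted at systemic leaf 1. Of 108 disease resistance genes of the TIR-NBS-LRR and NB-ARC families, which act as intracellular immune receptors, 61 (56.5%) were called lower and none higher, where 20.1% of tested genes were called lower. AT1G66090 had the largest fall, by 1.22 (log2). In the 3WT chain 8 of the 108 were higher and 2 lower, where 7.18% and 7.58% of tested genes were. The count of falls was 46 after median-of-ratios scaling and 44 after quantile normalization, with no rise under either. Of 97 leucine-rich repeat receptor kinases, cell-surface receptors for microbial and plant signals, 45 (46.4%) fell and 2 rose, with IOS1 falling by 1.15 (38 falls after median-of-ratios scaling and 30 after quantile normalization), against 14 higher and 7 lower in the 3WT chain. These 2 families also held 59 and 42 called negative differences from the 3WT chain as deposited and no positive one. Of all tested genes, 15.4% were called negative and 7.79% positive in that comparison. These interaction counts were not made under the other scalings.

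Of 51 MYB proteins, 13 rose and 4 fell, where 9.31% of tested genes rose and 20.1% fell, against 3 higher and 11 lower in the 3WT chain, where 7.18% and 7.58% did. MAPKKK17, a kinase gene induced by abscisic acid, had the largest rise among 980 protein kinases, 1.38 (log2), and the calcium-dependent kinase CPK28, which restrains immune signalling, the largest fall, -1.70. Of 47 SAUR genes, small auxin-induced growth genes, 17 fell and 4 rose against those same shares, and the falls numbered 11 after median-of-ratios scaling and 9 after quantile normalization. In the 3WT chain 11 of the 47 were higher and 2 lower. Of 314 ribosomal protein genes, 14 were higher and 15 lower as deposited, 51 and 6 after median-of-ratios scaling, and 10 and 25 after quantile normalization, so no direction is given.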
